A study of Rattus norvegicus with 4 samples.

Results

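The genes described here are 10 regulators of chromatin and transcription that have been linked to autism: Chd2, Chd8, Ash1l, Setd5, Adnp, Pogz, Auts2, Arid1b, Foxp1 and Tcf4. They were chosen by gene symbol, and 9 of the 10 had a row among the 21648 gene identifiers of the count table. Pogz, a zinc finger protein of heterochromatin, was not analysed here. The cells were cortical neurons of rat embryos of day 18 from a commercial supplier, cultured and given either the solvent DMSO or topotecan, with 2 libraries of total RNA per treatment. Topotecan inhibits topoisomerase I, the enzyme that releases the twist that transcription builds up in DNA, and per the series' design text it was meant to reduce expression from long genes. Strain, dose and exposure time are not stated in the labels. Nor do the labels tie the 2 libraries of a treatment to separate cultures, so p-values measure the spread between these libraries, which may be technical.

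Chromatin regulators control which stretches of DNA the transcription machinery can reach. Remodellers slide or evict nucleosomes with energy from ATP, histone methyltransferases mark nucleosomes, and DNA-binding factors bring such activities to particular genes. In the developing cortex these proteins take part in the change from progenitor to neuron, and loss of a single copy of several of them is a known cause of autism or intellectual disability. Several of the genes are long, with the coding parts spread between long introns, which makes them candidates for an effect of topoisomerase I inhibition.

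The libraries held between 22957786 and 31181382 gene counts. Values are given as CPM, counts per 1e6 library counts after TMM scaling (a scaling that assumes most genes do not change), and tests are edgeR's quasi-likelihood test with Benjamini-Hochberg adjustment over all 12162 genes tested, called below 0.05. All 9 genes with a row passed the low-count filter. Glial markers were lower in topotecan, to unequal degrees. The 9 astrocyte markers summed to between 3326 and 3557 counts per 1e6 unscaled counts in DMSO. In topotecan they summed to between 23.9 and 24.2, and all 9 fell. All 8 oligodendrocyte lineage markers fell as well, with log2 fold changes from -11.24 to -1.06. Their sums were 4003 and 4342 per 1e6 in DMSO and 130 and 118 in topotecan. All 6 tested radial glia and progenitor markers also fell. The 9 pan-neuronal markers summed to between 17995 and 19745 per 1e6 in DMSO and between 19953 and 21484 in topotecan, but singly they split: 3 fell (log2 fold changes of -1.53 for Syt1, -0.78 for Rbfox3 and -0.47 for Map2), 2 rose (Tubb3 and Nefm) and 4 did not pass. The 3 that fell were among the 4 markers of 100 kb or more, a length at which 43.5% of all tested genes were lower. Of the 5 shorter markers 0 fell and 2 rose. Of 6 interneuron markers 2 fell (Gad1 and Gad2) and 3 rose (Sst, Dlx1 and Lhx6), and of 6 glutamatergic neuron markers 5 rose and none fell. The 5 microglia markers with a row summed to at most 0.511 per 1e6 in any library. In bulk RNA, fewer cells of a type and less RNA per cell cannot be told apart, and the part of the glial change in the values below was not tested. The row of Top1, the gene of the drug's target, held at most 2 counts in a DMSO library and 0 in either topotecan library, too few to check the target's level. Whether this row captures the gene's reads was not tested, so these counts do not show that Top1 was unexpressed or lost.

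Of the 9 regulator genes, 1 fell, none rose and 8 did not pass the test. The gene that fell was Arid1b. Over all genes tested, 23.5% were lower and 16.2% were higher in topotecan by the same rule, so the count among the 9 was not above the background. The same shares are the background for the counts in the marker lists above and the gene lists below. The median log2 fold change was -0.23 for the 9 genes and -0.01 for all genes tested. Under TMM scaling the 95% interval of all 9 genes lay within a 2-fold change in either direction. That bound depends on the scaling. Scaled instead to short neuronal genes, as described below, every gene was lower than under TMM. Arid1b then stood at -0.84 (SE 0.17) and Setd5 at -0.68 (SE 0.20) on the log2 scale. At an unadjusted p below 0.05, 4 of the 9 passed, where the share of all genes was 47.7%. Topotecan and DMSO libraries did not overlap, with topotecan lower, for 4 of the 9 (Arid1b, Setd5, Ash1l and Tcf4), and 36.9% of all genes showed the same separation. No regulator gene had both topotecan libraries above both DMSO libraries, against 33.7% of all genes.

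**Figure D1:**
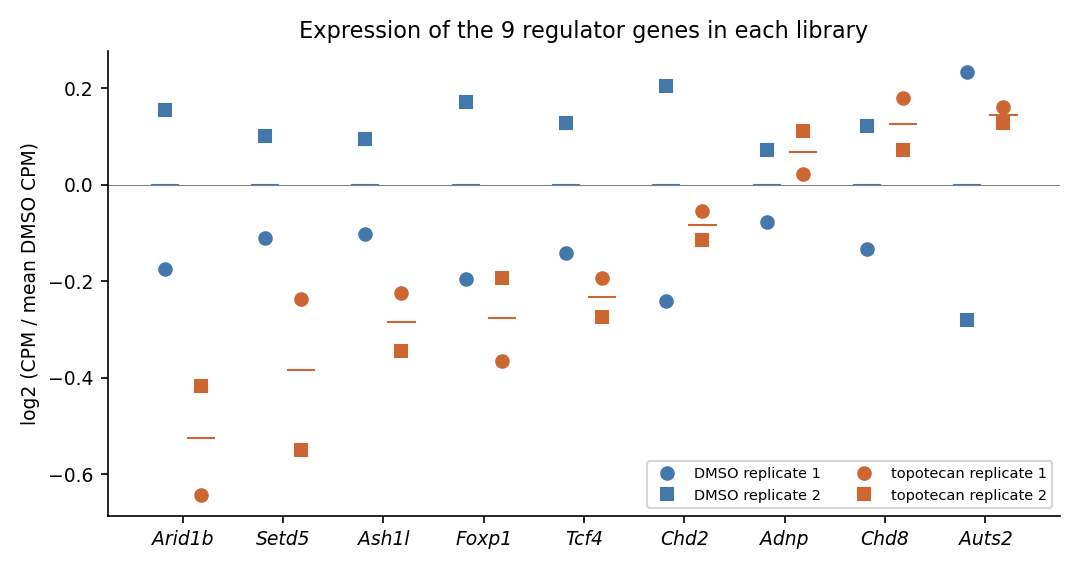
Each point is 1 library: the y axis is log2 of its CPM over the mean DMSO CPM of the gene, blue for DMSO and orange for topotecan, circles for replicate 1 and squares for replicate 2, with short lines at the group means. Arid1b, Setd5, Ash1l and Tcf4 have both topotecan libraries below both DMSO libraries, and in 8 of the 9 genes DMSO replicate 2 lies above DMSO replicate 1.

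Arid1b (ENSRNOG00000017030) codes for a DNA-binding subunit of the BAF remodelling complex, the mammalian SWI/SNF. It stood at 52.5 and 66.1 CPM in DMSO replicates 1 and 2 and at 38.0 and 44.5 CPM in topotecan. Both topotecan libraries lay below both DMSO libraries. The log2 fold change was -0.52 (SE 0.13, edgeR adjusted p = 0.00455), a change of -30.5% with a 95% interval from -42.3% to -16.2%. Without topotecan replicate 1 the log2 fold change was -0.41 and the adjusted p was 0.05001, just above the threshold. Arid1a, the paralogue that takes the same place in the complex, did not pass the test, with a log2 fold change of 0.05 (95% interval from -0.15 to 0.25). The number of Arid1b counts per Arid1a count within a library does not depend on the scaling. It came to 0.581 and 0.654 in the DMSO libraries and to 0.395 and 0.438 in the topotecan libraries, and so was lower in both of the latter. Arid2, a further paralogue, did not pass either, with a log2 fold change of -0.24 (95% interval from -0.53 to 0.05). Arid1b counts per Arid2 count were 3.59 and 4.45 in the DMSO libraries against 3.08 and 3.50 in the topotecan libraries. With 2 libraries against 2, the exact two-sided permutation test of each ratio here and below gives p = 0.333, the smallest value possible.

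The other subunits of the BAF complex moved in both directions. Of 22 subunit genes listed, 17 were tested, and 3 fell, 6 rose and 8 did not pass, with a median log2 fold change of 0.05 (-0.26 with an alternative scaling to the summed counts of 21 short neuronal genes, called the short-gene neuronal scaling below). Those 21 genes span at most 73.3 kb, Tubb3 gave 37.0% to 41.3% of their summed counts, and with TMM 8 of them rose, 2 fell and their median was 0.13, so values under this scaling are relative to short genes that were on balance higher. Over all tested genes this scaling took the rises from 1970 to 240 and the falls from 2854 to 4250. Rises that lost their call under it, here and below, are read beside that change. Dpf1 rose from 77.6 and 75.1 CPM to 156 and 153 CPM. Smarcd3 rose by 1.19 (SE 0.11) and Actl6b by 0.64 (SE 0.11) on the log2 scale. Dpf1 and Smarcd3 kept their call with the short-gene neuronal scaling, whereas Actl6b (adjusted p = 0.0854), Smarcc2, Smarca2 and Smarce1 did not. Actl6a fell by 0.83 (SE 0.12), Ss18 fell by 1.29 (SE 0.11) and Dpf3 fell by 2.85 (SE 0.30). Without topotecan replicate 1 the rises were 4, Smarca2 and Smarce1 having lost their call. In the same libraries all tested astrocyte, oligodendrocyte and progenitor markers fell, while 3 of 9 pan-neuronal markers fell and 2 rose. The 5 rises among 6 glutamatergic markers became 1 with the short-gene neuronal scaling or without topotecan replicate 2 and 3 without topotecan replicate 1, whereas the interneuron markers had 3 rises in all 11 alternatives, beside 2 falls or, with the short-gene neuronal scaling, 3. Arid1b was the longest gene among those subunits with a call, at 356 kb, followed by Dpf3 at 279 kb and Smarca2 at 168 kb, of which Smarca2 rose.

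Chd8 (ENSRNOG00000025011) and Chd2 (ENSRNOG00000012716) code for ATP-dependent remodellers with chromodomains. Chd8 had 53.9 and 64.2 CPM in DMSO and 66.9 and 62.1 CPM in topotecan, and Chd2 had 42.2 and 57.4 CPM in DMSO and 48.0 and 46.0 CPM in topotecan. The groups overlapped for both genes. The log2 fold change of Chd8 was 0.13 (95% interval from -0.10 to 0.36, edgeR adjusted p = 0.370). That of Chd2 was -0.08 (95% interval from -0.36 to 0.20, edgeR adjusted p = 0.657), which is less than the 0.45 between its DMSO libraries on the same scale. The result for both genes hangs on which DMSO library is used: without DMSO replicate 2 Chd8 passed as higher (0.26, adjusted p = 0.0339) and Chd2 turned to 0.16, and without DMSO replicate 1 Chd2 passed as lower (-0.28, adjusted p = 0.0240).

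Of the 7 CHD paralogues tested, 2 fell, 1 rose and 4 did not pass, with a median of -0.36. Chd7, a remodeller of neural stem cells and the oligodendrocyte lineage, dropped from 91 and 86 DMSO counts to 3 and 4 topotecan counts (log2 fold change -4.74, SE 0.40, edgeR adjusted p = 4.5e-07). Chd8 and Chd7 belong to the same subfamily, and Chd8 counts per Chd7 count were 16.3 and 17.4 in the DMSO libraries against 684 and 391 in the topotecan libraries. Chd4, the remodeller of the NuRD and ChAHP complexes, fell by 0.36 (SE 0.12), and Chd3, its counterpart in the NuRD complex, rose by 0.37 (SE 0.12). With the short-gene neuronal scaling Chd3 lost its call (adjusted p = 0.816). Leaving out topotecan replicate 1 or 2 cost both Chd3 and Chd4 their call, as did leaving out DMSO replicate 1 for Chd4. Chd1, the closest relative of Chd2, had a log2 fold change of -0.38 (95% interval from -0.83 to 0.08) and Chd9 one of -0.48 (from -1.03 to 0.06), and neither passed.

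Ash1l (ENSRNOG00000020386), a methyltransferase of histone H3 that counters Polycomb repression, had 43.3 and 49.6 CPM in DMSO and 39.7 and 36.5 CPM in topotecan. The groups were separate, but the test fell short of the threshold (log2 fold change -0.28, 95% interval from -0.52 to -0.04, edgeR adjusted p = 0.0585). Setd5 (ENSRNOG00000007472), a SET domain protein that works with the NCoR-HDAC3 co-repressor and the PAF1 elongation complex, was counted 343 and 336 times in the DMSO libraries and 349 and 231 times in the topotecan libraries. These are 12.4 and 14.4 CPM in DMSO and 11.4 and 9.16 CPM in topotecan, again with separate groups and no call (log2 fold change -0.38, 95% interval from -0.72 to -0.04, edgeR adjusted p = 0.0732). Both genes passed as lower without DMSO replicate 1, Ash1l at -0.37 (adjusted p = 0.00536) and Setd5 at -0.47 (adjusted p = 0.0213). Without DMSO replicate 2 they stood at -0.18 (adjusted p = 0.201) and -0.27 (adjusted p = 0.222), and without topotecan replicate 2 Setd5 stood at -0.23 (adjusted p = 0.458). With library totals in place of TMM, Ash1l passed (adjusted p = 0.0362) and Setd5 did not (0.0514).

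Other histone lysine methyltransferases had calls in both directions. Of 19 tested, 2 fell (Ezh2 and Setd7), 2 rose (Ehmt2 and Setdb1) and 15 did not pass, and the median was -0.06. Ezh2, the Polycomb methyltransferase of dividing cells, fell by 0.52 (SE 0.16) on the log2 scale, and Ehmt2, a writer of a silencing mark, rose by 0.37 (SE 0.12). Both rises lost their call with library totals and with the replicate number as a block (adjusted p = 0.0530 for Ehmt2 and 0.0616 for Setdb1), and with the short-gene neuronal scaling Setdb1 turned to -0.07. Both falls lost theirs with DESeq2 (adjusted p = 0.0689 for Ezh2 and 0.151 for Setd7). Without topotecan replicate 1 none of the 4 calls was kept, and without topotecan replicate 2 only that of Setd7 was. Kmt2a, founder of the mixed-lineage leukaemia family, was at 0.17 (95% interval from -0.20 to 0.54). Of 3 tested partners of Ash1l, Rbbp7 and Psip1 rose by 0.30 (SE 0.08) and 0.32 (SE 0.10), and with the short-gene neuronal scaling both lost the call at values of 0.00 and 0.01, as they did without topotecan replicate 2, and Psip1 also without topotecan replicate 1. Of 10 tested members of the complexes that bind Setd5, Hdac3 rose by 0.32 (SE 0.08), losing the call with the short-gene neuronal scaling, Tbl1xr1 fell by 0.65 (SE 0.17) and 8 did not pass. Both lost the call without topotecan replicate 2.

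Adnp (ENSRNOG00000010975), a homeodomain and zinc finger protein that recruits Chd4 and heterochromatin protein 1 to DNA, was counted deeply, 5501 and 5168 times in the DMSO libraries and 6553 and 5734 times in the topotecan libraries. It stood at 199 and 221 CPM in DMSO and 214 and 227 CPM in topotecan, and the groups overlapped. The log2 fold change was 0.07 with a 95% interval from -0.11 to 0.25, so a change larger than 18.8% upward or 7.44% downward lay outside the interval under this scaling. Of 7 tested genes of the complexes of Adnp and Pogz, Chd4 fell, Psip1 and Cbx5 rose and 4 did not pass (median 0.07, and -0.23 with the short-gene neuronal scaling, under which neither rise kept its call and Cbx5 changed sign). Cbx5, the gene of heterochromatin protein 1 alpha, rose by 0.26 (SE 0.09), a call lost with library totals, and none of the 3 calls was kept without topotecan replicate 2.

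Auts2 (ENSRNOG00000000885), which joins a variant Polycomb complex and is linked there to activation of neuronal genes, was the most thinly counted gene of the 9. Its counts were 140 and 83 with DMSO and 148 and 119 with topotecan, or 5.08, 3.55, 4.83 and 4.72 CPM in that order. The topotecan libraries lay between the DMSO libraries. The log2 fold change was 0.14 with a wide 95% interval from -0.31 to 0.59 (edgeR adjusted p = 0.636). Its sign turned without DMSO replicate 2 (-0.086). Of 10 tested partners, Rnf2 and Csnk2b rose by 0.37 (SE 0.09) and 0.22 (SE 0.08) and 8 did not pass. With the short-gene neuronal scaling both lost the call and Csnk2b changed sign, and without topotecan replicate 2 both lost the call as well. Csnk2b lost it also with library totals and without DMSO replicate 2 or topotecan replicate 1.

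Foxp1 (ENSRNOG00000009184) and Tcf4 (ENSRNOG00000012405) are DNA-binding transcription factors, a forkhead repressor of cortical neurons and a basic helix-loop-helix E protein. Foxp1 had 12.6 and 16.2 CPM in DMSO and 11.2 and 12.6 CPM in topotecan, and topotecan replicate 2 reached the lower DMSO library. Its log2 fold change was -0.27 (95% interval from -0.61 to 0.07, edgeR adjusted p = 0.188). Without DMSO replicate 1 Foxp1 passed as lower (-0.44, adjusted p = 0.0206), and without DMSO replicate 2 it was at -0.081 (adjusted p = 0.731). Tcf4 had the highest counts of the 9 genes, from 10219 to 13132 per library. It stood at 444 and 536 CPM in DMSO and 428 and 405 CPM in topotecan, with the groups separate by a small gap. The log2 fold change of Tcf4 was -0.23 (95% interval from -0.43 to -0.04), and its adjusted p of 0.0554 in edgeR's test fell just short of the threshold. It passed without DMSO replicate 1 (-0.35, adjusted p = 2.5e-04), with library totals (-0.27, adjusted p = 0.0311) and without the count filter (-0.22, adjusted p = 0.0226). Without DMSO replicate 2 it was -0.09 (adjusted p = 0.376).

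Among the relatives of Foxp1, Foxp4 rose from 49 and 21 DMSO counts to 77 and 62 topotecan counts (log2 fold change 0.87, SE 0.31, edgeR adjusted p = 0.0403), a call lost with DESeq2 (adjusted p = 0.133), with the short-gene neuronal scaling (0.144) and with DMSO replicate 2, topotecan replicate 1 or topotecan replicate 2 left out. Foxp1 counts per Foxp4 count were 7.08 and 18.05 in the DMSO libraries against 4.45 and 5.13 in the topotecan libraries. In the list of Foxp1 relatives and partners 2 of 7 tested genes rose (Foxp4 and Mta1; none with the short-gene neuronal scaling) and none fell. Without DMSO replicate 1 the rises were 4, and without DMSO replicate 2 or topotecan replicate 1 there were 0. E proteins such as Tcf4 act as dimers with cell-type specific helix-loop-helix factors, and of 10 such partners and inhibitors tested 6 fell and 3 rose (7 and 1 with the short-gene neuronal scaling). Olig1, a factor of oligodendrocyte precursors that is also among the oligodendrocyte lineage markers above, fell from 1184 and 919 counts to 5 and 3. Id3, an inhibitor of E proteins, fell from 1812 and 1160 counts to 4 and 1. Neurod6 and Neurod1, of cortical excitatory neurons, rose by 1.23 (SE 0.08) and 0.67 (SE 0.10), and the call of Neurod1 was lost with the short-gene neuronal scaling (adjusted p = 0.0653). The remaining rise, of Neurod2, rested on 2 and 5 DMSO counts against 18 and 12 topotecan counts. Its call was lost with the short-gene neuronal scaling (adjusted p = 0.0534) and with DESeq2 (adjusted p = 0.172). Id2, another inhibitor, did not pass and had a log2 fold change of -0.10 (95% interval from -0.26 to 0.06).

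**Figure D2:**
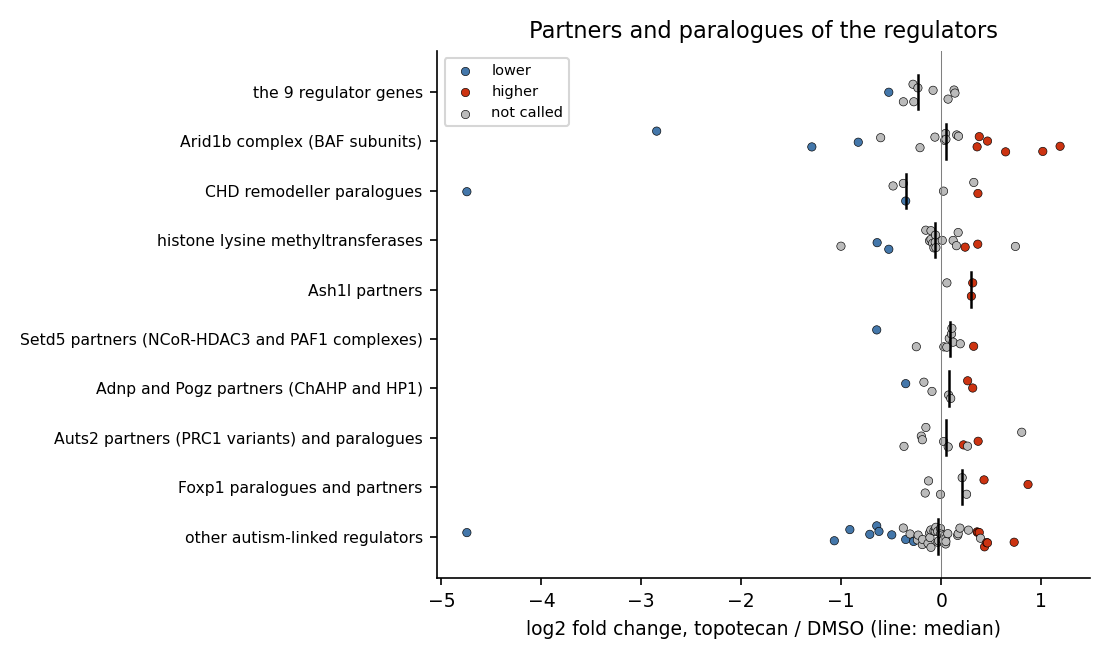
Each point is 1 tested gene at its log2 fold change on the x axis, in rows for the 9 regulator genes and for lists of their partners and paralogues, blue if called lower, red if called higher and grey if not called, with a line at each list's median. The 9 regulators spread from -0.52 to 0.14, while BAF subunits spread from -2.85 to 1.19 with calls on both sides. With the short-gene neuronal scaling the medians of the Setd5, Adnp and Pogz, Auts2, Foxp1 and BAF lists turn negative. The median of all tested genes moves with them, from -0.01 to -0.31, and lies below the medians of all these lists.

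The length of the gene was compared with its change because the drug was used against long genes. Spans, the start-to-end lengths of the genes in RefSeq's GRCr8 annotation, were 30.1 kb for Adnp, 59.7 kb for Chd8, 77.7 kb for Setd5, 129 kb for Chd2, 136 kb for Ash1l, 346 kb for Tcf4, 356 kb for Arid1b, 691 kb for Foxp1 and 1091 kb for Auts2. Of the 6 members of 100 kb or more, 1 fell and 5 had a log2 fold change below 0. Among all tested genes of this length 43.5% were lower and 6.11% higher. The 2 longest, Foxp1 and Auts2, did not pass, where 77.8% of the 176 tested genes of 500 kb or more were lower. The median log2 fold change of that class was -1.19, which lies outside the 95% intervals of both Foxp1 and Auts2. Within the class, 84.7% of genes had a lower value than Foxp1 and 92.0% a lower value than Auts2.

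In the class of 200 to 500 kb the median was -0.54. Arid1b, at -0.52, lay in the middle of it, with 51.6% of the class below, and Tcf4 lay higher, with 70.1% below and an interval that excluded the class median. Chd2 and Ash1l belong to the class of 100 to 200 kb, whose median of -0.19 lay inside both intervals. Of the 6 long genes, 3 had an interval that excluded the median of their class. The table lists 1 transcript each for Auts2, Foxp1, Setd5 and Adnp, and Auts2, Foxp1 and Setd5 had the lowest counts of the 9. Whether these rows cover the whole gene was not tested. In the RefSeq annotation Foxp1 overlaps Eif4e3, Ash1l overlaps Dap3, Adnp overlaps Dpm1 and Chd8 overlaps Snord8, and since no source used here states how strand was treated in counting, reads of these pairs may be shared.

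**Figure D3:**
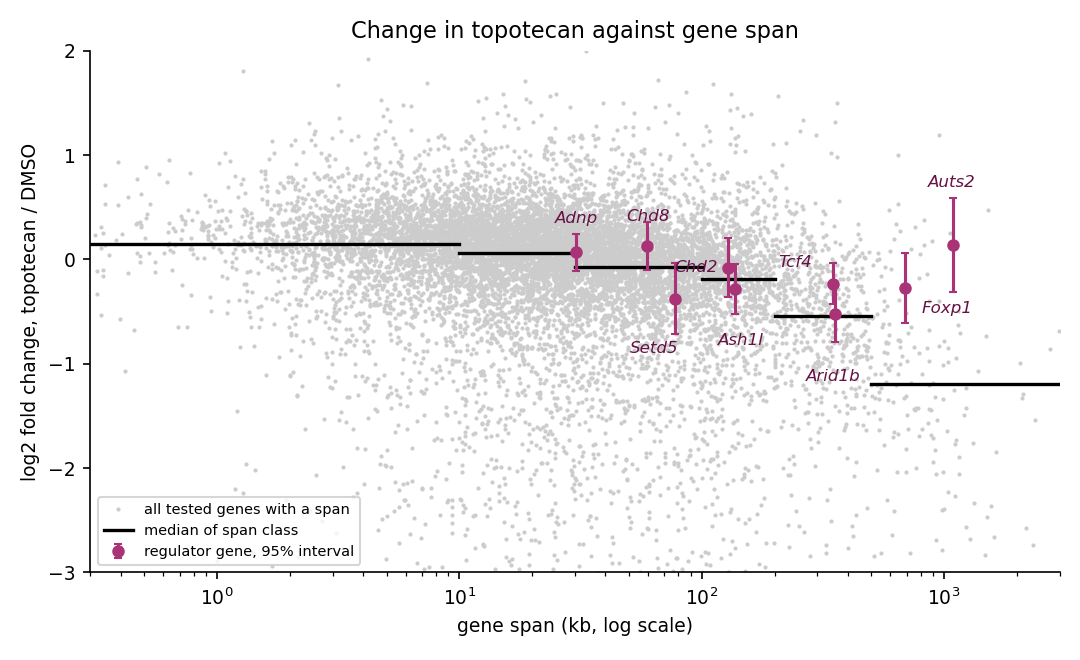
The x axis is gene span in kb on a log scale and the y axis the log2 fold change of topotecan over DMSO; grey points are tested genes (593 lie outside the axes), black bars the medians of span classes, and purple points the 9 regulators with 95% intervals. Foxp1 and Auts2 lie above the median of -1.19 of genes of 500 kb or more, whereas Arid1b lies at the median of its class.

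Which of the 9 genes passed depended on the libraries used, both DMSO and topotecan. In 8 of the 9, Auts2 being the exception, DMSO replicate 2 was higher than DMSO replicate 1, by a median over the 9 of 0.25 on the log2 scale. Over all tested genes DMSO replicate 2 was higher in 49.8%, with a median difference of 0.00. In topotecan 3 of the 9 were higher in replicate 2, and the median size of the difference was 0.11. Without DMSO replicate 1, 6 of the 9 passed as lower (Arid1b, Setd5, Ash1l, Foxp1, Tcf4 and Chd2), where 23.7% of all genes did. Without DMSO replicate 2, Arid1b passed as lower and Chd8 as higher, against 22.1% and 15.7% of all genes. Without topotecan replicate 1 none of the 9 passed, and without topotecan replicate 2 Arid1b alone did, where in both cases 18.8% of all genes were lower.

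The short-gene neuronal scaling moved the all-gene median log2 fold change by -0.30 and the values of the 9 with it. Under it 6 of the 9 passed as lower, the same 6 genes as without DMSO replicate 1, and Adnp, Chd8 and Auts2 turned to -0.24, -0.18 and -0.14 without passing. The share of all genes that was lower rose to 34.9% and the share that was higher fell to 1.97%, so that 94.7% of calls were lower, against 59.2% with TMM. With library totals 3 of the 9 were lower (Arid1b, Ash1l and Tcf4) beside 24.9% of all genes, and without the count filter 2 were (Arid1b and Tcf4) beside 18.8%. Arid1b was the only call among the 9 with RLE scaling, DESeq2, limma-voom and a replicate block, where 22.9%, 19.6%, 23.6% and 22.6% of all genes were lower. Arid1b kept a value below 0 in all 11 alternatives, from -0.84 to -0.35, and passed in 10 of them.

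**Figure D4:**
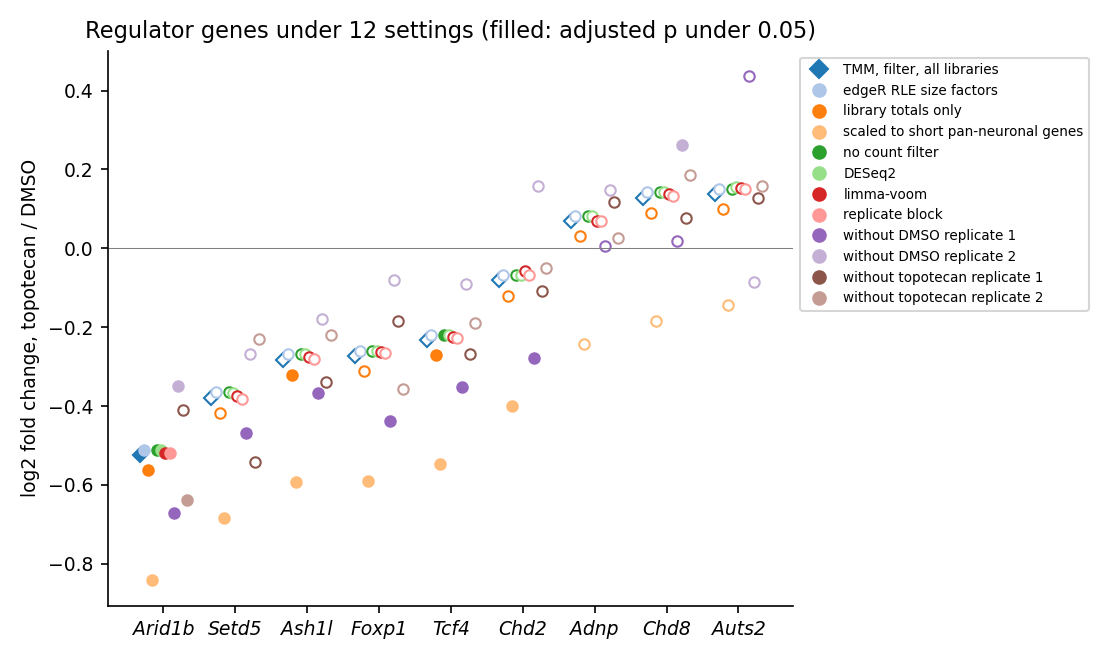
Each column is a gene and each point its log2 fold change (y axis) under 1 of 12 settings of scaling, filter, test or libraries, filled where the adjusted p is under 0.05; the diamond is the value given in the text. Arid1b stays below 0 throughout, the scaling to short pan-neuronal genes lowers every gene, and leaving out a DMSO library moves most genes up or down.

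A wider list of autism-linked regulators was read in the same way. Of 58 further genes of chromatin or transcription, 47 were tested, and 9 fell, 7 rose and 31 did not pass, with a median log2 fold change of -0.04, where 23.5% of all genes were lower and 16.2% higher. By span, 7 of the 22 genes of 100 kb or more fell and 1 rose, where 43.5% of all genes of that length were lower and 6.11% higher. Neither share of falls was above its background. Chd7 fell most, as given above. Satb1, a chromatin organiser of neurons, fell by 0.91 (SE 0.10), and Myt1l, a factor that holds down non-neuronal genes and spans 399 kb, fell by 0.71 (SE 0.08). Smarcc2, a core BAF subunit, rose by 0.46 (SE 0.09). With the short-gene neuronal scaling 16 of the 47 were lower and none was higher, beside 34.9% and 1.97% of all genes. DMSO replicate 2 was above replicate 1 in 36 of the 47, and in 49.8% of all genes tested. Without topotecan replicate 2 there were 5 falls and 3 rises, without topotecan replicate 1 7 falls and 3 rises, and without DMSO replicate 2 6 falls and 7 rises.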

How the data were processed

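RNA was sequenced from 4 libraries, 2 given DMSO and 2 given topotecan, grouped by sample title. The labels' protocols name a small RNA kit, but protein-coding genes held 96.3% to 97.0% of the gene counts in each library. The authors deposited raw gene counts, made with STAR and edgeR per the submitters' processing notes, with no version. The genome build, annotation and strand setting are not stated in the labels or the file. Of 21648 identifiers, 792 were repeated on further rows with the same counts and were used once. Replicates differed by more than sampling noise (chi-square per degree of freedom 13.0 in DMSO and 9.34 in topotecan). Genes were filtered with filterByExpr (minimum count 10, minimum total 15), scaled by TMM and tested with edgeR 4.0.16 (R 4.3.3), with treatment as the only term and 2 residual degrees of freedom. The procedure was also run on simulated counts in which few genes changed, equally up and down. That setting differs from these data, where 39.7% of genes were called, so the run does not test the scaling here. Standard errors are the log2 fold change over the square root of F. Spans came from RefSeq (GRCr8) by Entrez number, symbol or synonym. The regulator genes, gene lists and tests were chosen with earlier results of these data known. Named genes are the 9 regulators, their closest paralogues, Top1, the genes of each list with the smallest p and those that stand alone in their direction. Cbx5, Setdb1, Setd7, Smarcd3, Dpf3, Actl6a, Actl6b, Smarca2, Smarce1, Neurod1, Neurod2, Neurod6, Id2, Map2, Tubb3, Nefm, Gad1, Gad2 and Lhx6 were named after their values were seen. Alternatives used DESeq2 1.42.0, limma-voom (limma 3.58.1), other scalings, no filter, a replicate block and each library left out.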

Additional observations from a re-analysis of the deposited data

How the results depend on the processing

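Counts of 9 regulator genes that were lower changed from 1 to 3 with library totals, to 6 with the scaling to short neuronal genes and to 2 without a count filter, and ranged from 0 to 6 with 1 library left out. The number that were higher ranged from 0 to 1 with 1 library left out, Chd8 being called without DMSO replicate 2. Of all genes, 23.5% were lower with TMM, 24.9% with library totals, 34.9% with the scaling to short neuronal genes and 18.8% without a count filter. With the scaling to short neuronal genes Adnp turned to -0.24, Auts2 to -0.14 and Chd8 to -0.18. With 1 library left out, Auts2 ranged from -0.086 to 0.44 and Chd2 from -0.28 to 0.16. The genes higher over the whole table went from 1970 to 240 with the short-gene neuronal scaling and ranged from 1208 to 2470 with 1 library left out, against 2854 lower, which became 4250 under that scaling. Under the same scaling the other autism-linked regulators went from 9 lower and 7 higher to 16 and 0, the partner and paralogue lists from 14 lower and 20 higher to 23 and 3, and the neuronal markers from 10 higher to 4. The shares of all genes under that scaling were 34.9% lower and 1.97% higher, against 23.5% and 16.2% with TMM. With 1 library left out, ranges were 5 to 9 lower and 3 to 7 higher for the autism-linked regulators, 11 to 16 lower and 9 to 23 higher for the partner and paralogue lists, and 6 to 9 higher for the neuronal markers, while all 23 glial and progenitor markers stayed lower. With a replicate block, 1 of the 9 genes was lower (Arid1b, adjusted p = 0.00197) and none higher, and 2746 genes were lower and 1822 higher. Deviations of same-numbered libraries from their group means correlated at -0.06 over 12162 genes, which shows no shared pattern by number. With 1 such pair of differences, this cannot decide whether same-numbered libraries were prepared together. DESeq2, limma-voom and RLE scaling gave the same 1 regulator gene as lower. With a library left out, its group's lone sample is assumed to vary like the other group. With 83 to 148 counts, the interval of Auts2 spans -0.31 to 0.59. The causes were not tested.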
